A study of Mus musculus with 14 samples.

Results

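The genes described here are the TLR4 receptor, its co-receptors and the first proteins of its signalling chain, measured in dorsal horn microglia of WT and TASTPM mice given arthritogenic or control serum. They are the 10 genes Tlr4, Cd14, Ly96, Myd88, Tirap, Ticam1, Ticam2, Irak1, Irak4 and Irak3, taken by symbol from the 14329 genes of the deposited values. Each was found once, and 10 of 10 had 10 or more reads in 7 or more libraries, the filter that 12645 genes passed.

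TLR4 is the receptor through which innate immune cells sense bacterial lipopolysaccharide and some host molecules released by injured tissue, and in the spinal cord it is studied for its part in microglial responses during pain. CD14 hands the ligand to a complex of TLR4 and MD-2, the small secreted protein encoded by Ly96. From the cell surface TIRAP and MYD88 recruit the kinases IRAK4 and IRAK1 and lead to NF-kB, whereas from endosomes TRAM (Ticam2) and TRIF (Ticam1) lead mainly to type I interferon genes, and IRAK-M (Irak3) restrains the IRAK step and is best known from monocytes and macrophages.

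Microglia sorted as CD45low CD11b+ CX3CR1+ cells, 2000 per sample, came from the dorsal horns of 6-month-old mice on day 5 after serum transfer (ST). The study reports the use of male and female mice, also for the transcriptomics. The labels do not give the sex behind a library, so sex was not part of any comparison. In the study's gate, cells positive for Ly6C or CCR2, surface proteins of classical monocytes, were also left out. K/BxN ST, which brings on an inflammatory arthritis, gave 4 libraries in WT and 4 in TASTPM. Control ST, pooled serum of KRN/C57 mice, gave 3 libraries in each genotype, so that all 4 groups received serum. TASTPM mice are heterozygous for human transgenes, among them APP with the Swedish mutation, under the murine Thy-1 promoter, which drives expression mainly in neurons, and the WT mice were C57BL/6J. The human transgenes were not looked for in these mouse gene values, so the genotype labels were not checked here. The labels do not name the animal behind a library, but the study's reporting counts individual mice and gives group sizes equal to the numbers of libraries. In TASTPM K/BxN ST the replicates 1 to 4 are those of the labels. Among the other 10 columns, some carry a number that the labels give to the same group. Others carry a number that the labels give to another group or do not list. Number 8, for example, stands under TASTPM Control and belongs to WT K/BxN in the labels. The groups of all 10 columns therefore rest on the group name written above each column. These columns are numbered in column order, which bears on every comparison.

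The libraries held between 14223015 and 20239175 reads on genes. The 10 microglial markers (P2ry12, Tmem119 and others) were read in all 14 libraries, but 4 libraries stood apart. WT K/BxN libraries 1 and 2 and TASTPM K/BxN replicates 1 and 2 had 0.510% to 1.66% of their reads on the 18 markers of classical monocytes and neutrophils, against 0.0260% to 0.0674% in the other 10 libraries. For the 8 monocyte markers, led by Chil3, Ly6c2 and Ccr2, the shares were 0.448% to 0.885% against 0.00115% to 0.00263%, and for the 10 neutrophil markers 0.0617% to 0.777% against 0.0240% to 0.0655%. Among the neutrophil markers Ly6g was at 0 in 10 libraries, including WT K/BxN library 2, while Csf3r was read in all 14. Markers of border-associated macrophages also set these 4 libraries apart, with 0.00738% to 0.0198% of reads against 0% to 0.00576%. So did dendritic cell markers, with 0.00462% to 0.0467% against at most 0.00134%. The shares of lymphocyte, oligodendrocyte, astrocyte, neuron and endothelial cell markers overlapped. The 10 microglial markers together took 2.02% to 4.77% of the reads in these 4 libraries and 5.71% to 7.41% in the others. In bulk RNA, fewer cells of a type and less RNA per cell cannot be told apart. The gate against Ly6C and CCR2 is one that would remove classical monocytes. The 10 genes are described with all 14 libraries and, where values differ, without these 4.

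To compare genes, normalised counts were divided by the length of the exons in kb. Per kb, Cd14 was by far the highest of the 10 genes, with a mean of 8577 over the 14 libraries (SD 1932), and ranked 56 among 12604 tested genes with a known length. Ly96 followed with a mean of 1288 per kb, and Myd88 and Tlr4 were next with 671 and 660.1 per kb. Myd88 was above Tlr4 in 4 of 14 libraries, which were those rich in leukocyte markers, and below it in all others. The order of these neighbours by the mean over 14 libraries therefore rests on those 4. In WT Control the means were 473 per kb for Myd88 and 836 for Tlr4, and in TASTPM Control 436 and 660. Ticam2 and Irak1 lay together at 261 and 260.2 per kb, Irak4 at 128, Ticam1 at 93.7, and Tirap and Irak3 were lowest at 54.4 and 53.2 per kb. Ticam2 was above Irak1 in 5 of 14 libraries, so this pair cannot be ordered. Tirap was above Irak3 in 7 of 14, and their order differed between the sera. In WT Control the lowest Tirap value was 29.6 per kb and the highest Irak3 value 27.7. In TASTPM Control these were 45.01 and 24.5. In K/BxN ST Irak3 had the higher mean, at 91.2 against 55.6 in WT and 72.6 against 64.3 in TASTPM. There the ranges of the 2 genes overlapped in both genotypes. In contrast, Cd14 was above Ly96, Irak1 above Irak4 and Ticam1 above Tirap in all 14 libraries. The place of Ticam2 in this order is uncertain, since its level was divided by a length of which 65.3% is shared with another gene (Tmed7). Per kb, the transcript of the accessory receptor CD14 was above that of TLR4 in every group, as the plot of levels per exon length shows.

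**Figure D1:**
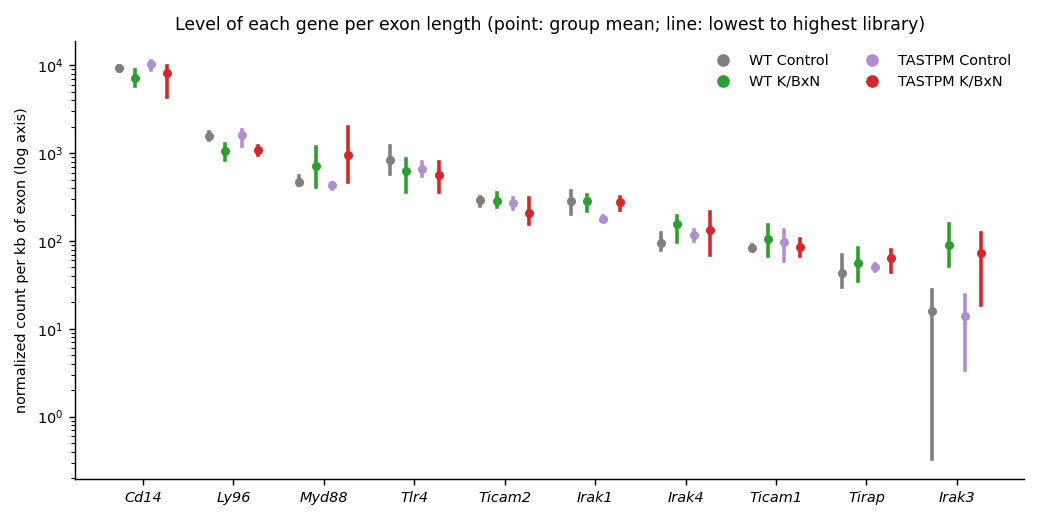
Normalised count per kb of exon (log axis) of the 10 genes in each of the 4 groups, with points at group means and lines from the lowest to the highest library. Cd14 is highest in every group, and Irak3 spans the widest range, down to 0.331 per kb in 1 WT Control library.

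The first question was whether arthritis altered these genes in microglia of either genotype. By limma, 0 of 10 passed an adjusted p of 0.05 with an absolute log2 fold change above 1 in WT K/BxN ST against WT Control ST, where 0.00791% of the 12645 genes tested did (1 gene), and 0 of 10 passed in TASTPM, where 0% did. At an unadjusted p under 0.05, limma gave 2 of 10 in WT (Irak3 higher, Ly96 lower) and 2 of 10 in TASTPM (Irak1 higher, Ly96 lower), against 7.13% and 4.22% of all genes tested. edgeR and DESeq2 on the recovered reads called 0 of 10 in both genotypes as well, with 2 of 10 at an unadjusted p under 0.05 in WT and 4 of 10 in TASTPM, where Irak3 and Myd88 joined. Of all 12645 genes edgeR called 0 in both genotypes, so its 0 of 10 says nothing about these genes. DESeq2 called 1% of all genes in WT and 0.127% in TASTPM. Of all genes, 6.18% by edgeR and 7.92% by DESeq2 had such a p in WT, and 4.03% and 5.46% in TASTPM. In WT, K/BxN and Control libraries did not overlap for Irak3 (higher) and Ly96 (lower), 2 of 10 against 7.38% of all genes (3.67% higher, 3.71% lower). In TASTPM they did not overlap for Myd88 and Irak1 (both higher), 2 of 10 against 5.41% of all genes (2.67% higher). The medians over the 10 genes were 0.15 in WT and -0.01 in TASTPM on the log2 scale, beside 0.06 and 0.01 over all genes tested.

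**Figure D2:**
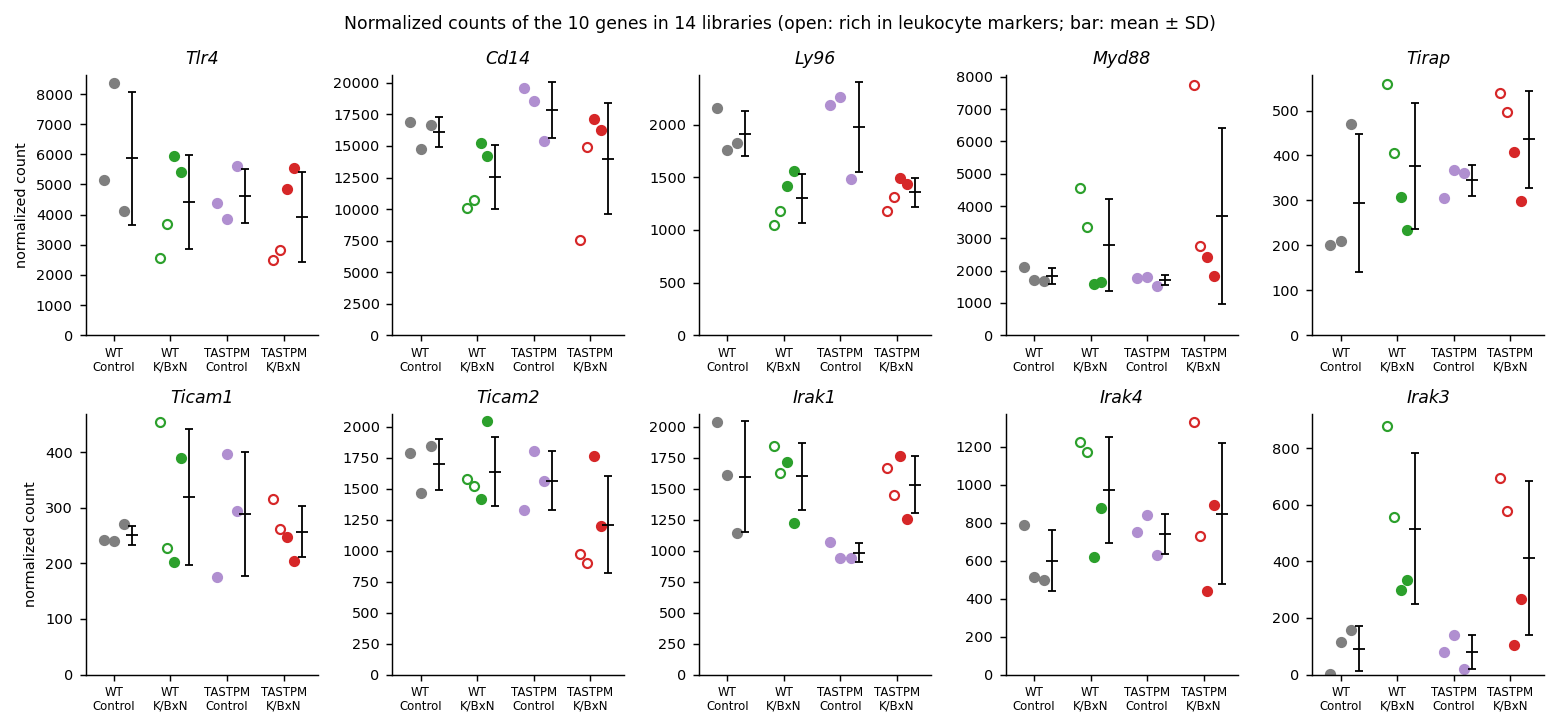
Normalised counts of the 10 genes (linear axes from 0) in each library of the 4 groups, with the mean ± SD of 3 or 4 libraries beside the points and open circles for the 4 libraries rich in leukocyte markers. Tlr4 and Ly96 are lowest, and Myd88 and Irak3 highest, in the open circles.

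Among the receptor genes, all 3 had a lower mean after K/BxN ST than after Control ST in both genotypes. Tlr4 (ENSMUSG00000039005, GRCm39 chr4:66745783-66849936, plus strand), the signalling receptor itself, had normalised counts of 5132, 8350 and 4104 in the WT Control libraries and 2555, 3706, 5938 and 5426 in the WT K/BxN libraries. In TASTPM it had 4402, 3850 and 5617 in Control and 2509, 2816, 4837 and 5530 in K/BxN. The groups overlapped in both genotypes, and the lowest values were those of the 4 libraries rich in leukocyte markers. The log2 fold change was -0.42 ± 0.35 (SE) in WT, with a 95% interval of -1.16 to 0.32 and an adjusted p of 0.79 (limma), and -0.30 ± 0.35 in TASTPM, with an interval of -1.04 to 0.44 and an adjusted p of 0.964 (limma). Without the 4 libraries the fold changes of Tlr4 turned to 0.019 in WT and 0.18 in TASTPM. Leaving out 1 library at a time, the WT value ran from -0.65 (without WT Control library 3) to -0.14 (without WT Control library 2), and the TASTPM value from -0.49 (without replicate 4) to -0.11 (without replicate 1). The exact permutation p, two-sided over 35 splits with a smallest value of 0.0286, was 0.40 in each genotype with all libraries.

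Cd14 (ENSMUSG00000051439, chromosome 18), the membrane-anchored co-receptor, had normalised counts of 16870.5, 14745 and 16673 in WT Control and 10047, 10747, 15224 and 14230.4 in WT K/BxN. Of the 4 K/BxN libraries 3 lay below every Control library. In TASTPM the counts were 19581, 18567 and 15366 in Control and 7511, 14949, 17164 and 16299.9 in K/BxN, so that 2 of 4 K/BxN libraries lay below all Control libraries and replicate 1 lay far below the rest. The log2 fold changes of -0.38 ± 0.26 in WT and -0.41 ± 0.26 in TASTPM had adjusted p-values of 0.774 and 0.964 (limma), and without the 4 libraries they were -0.13 and -0.08. Leaving out replicate 1 alone moved the TASTPM value of Cd14 to -0.14.

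Ly96 (ENSMUSG00000025779, GRCm39 chr1:16758275-16779961, plus strand), which encodes MD-2, was lower after K/BxN ST at an unadjusted p under 0.05 in both genotypes, and was not called. Its normalised counts were 2161, 1756 and 1826 in WT Control and 1042, 1179, 1420.2 and 1555 in WT K/BxN, a mean of 1915 ± 217 (SD, n = 3) against 1299 ± 231 (SD, n = 4) with no overlap. In TASTPM they were 2183, 2263 and 1480.1 in Control and 1183, 1309.8, 1494 and 1435 in K/BxN. Here 3 of 4 K/BxN libraries lay below all Control libraries, and the lowest Control library lay within the K/BxN range. The log2 fold change was -0.57 ± 0.21 in WT (95% interval -1.02 to -0.12, unadjusted p = 0.0157, adjusted p = 0.645, limma) and -0.52 ± 0.21 in TASTPM (-0.97 to -0.08, unadjusted p = 0.0246, adjusted p = 0.964, limma). The exact permutation p was 0.0571 in each genotype. Without the 4 libraries Ly96 was still lower in both WT K/BxN libraries that remained than in any WT Control library, at -0.36, and the TASTPM value was -0.41. With 2 libraries left against 3, however, 18.6% of all genes tested did not overlap in WT. The difference in the serum effect on Ly96 between the genotypes was 0.05 on the log2 scale (95% interval -0.58 to 0.68).

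Of the 4 adaptors, Myd88 had the largest differences between libraries, and 0 of 4 were called. Myd88 (ENSMUSG00000032508, GRCm39 chr9:119165000-119170486, minus strand), the adaptor shared by most Toll-like receptors and the interleukin-1 receptor, had normalised counts of 2115, 1720.1 and 1687 in WT Control and 4561, 3358, 1589.9 and 1656 in WT K/BxN. In TASTPM they were 1772, 1797 and 1517 in Control and 7735, 2763, 2408 and 1832 in K/BxN. In WT, the pair of libraries rich in leukocyte markers lay above all Control libraries and the other pair below them, and in TASTPM all 4 K/BxN libraries lay above all 3 Control libraries. The log2 fold change was 0.46 ± 0.44 in WT (adjusted p = 0.809, limma) and 0.88 ± 0.44 in TASTPM (95% interval -0.05 to 1.81, unadjusted p = 0.0615, adjusted p = 0.964, limma, exact permutation p = 0.0571). Replicate 1 set much of the TASTPM value, which was 0.44 without it. Without the 4 libraries the WT value turned to -0.17, and the TASTPM value was 0.31 with the groups still apart, where 18.8% of all genes did not overlap. Of the exonic positions of Myd88, 16.2% are shared with Acaa1a on the opposite strand. The cDNA kit does not mark strand and the strand setting of the counting is not given in the sources used here, so reads there cannot be assigned to one gene.

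The promoter of Myd88 is shown because Myd88 was one of the genes whose groups did not overlap. It runs from 250 bases before to 50 after the start site (RefSeq, GRCm38.p6, chr9:119339969-119340268, minus strand, 5′ to 3′), and capitals mark matches to GGGCGG (GC box) and to GAAANNGAA (taken from the interferon-stimulated response element).

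Myd88: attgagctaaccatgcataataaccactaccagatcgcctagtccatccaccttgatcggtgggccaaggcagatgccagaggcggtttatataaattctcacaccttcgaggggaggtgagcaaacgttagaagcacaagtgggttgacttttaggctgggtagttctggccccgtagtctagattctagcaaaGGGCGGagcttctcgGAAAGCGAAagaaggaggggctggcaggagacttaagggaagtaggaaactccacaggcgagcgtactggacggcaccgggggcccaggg

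Both strands were searched for these and for GGGNNTTTC (taken from the NF-kB motif) and GAGGAA (ETS and PU.1 core), and no matches overlap in the promoters printed here. GAAANNGAA lies 40 bases before the start of Myd88, and 8.56% of 32851 promoters of this length hold it. The GC box lies 55 bases before the start, with a share of 35.7%. Of the 10 genes 6 were matched in the promoter table, and Tlr4, Cd14, Ly96 and Ticam2 were not. Among these 6, Myd88 and the second start site of Irak3 held the letters GAAANNGAA, and none held GGGNNTTTC, which 4.36% of all promoters hold. These matches describe letters and not sites in use.

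Tirap (ENSMUSG00000032041, GRCm39 chr9:35095542-35111654, minus strand), which bridges TLR4 to MYD88, was low, with normalised counts of 201 to 471 in WT Control, 234 to 559 in WT K/BxN, 305 to 367 in TASTPM Control and 298 to 539.7 in TASTPM K/BxN. Its log2 fold changes were 0.40 ± 0.38 and 0.31 ± 0.38 in WT and TASTPM (adjusted p = 0.811 and 0.964, limma). They were -0.0094 and 0.022 without the 4 libraries, and with the share of leukocyte markers as a covariate the TASTPM value was -0.13. Ticam1 (ENSMUSG00000047123, GRCm39 chr17:56576319-56583786, minus strand), the TRIF adaptor, was also low, at 239.7 to 270.3 in WT Control, 203 to 455 in WT K/BxN, 175 to 397 in TASTPM Control and 204 to 315 in TASTPM K/BxN. Its fold changes of 0.27 ± 0.38 in WT and -0.11 ± 0.38 in TASTPM lay within the spread between libraries (adjusted p = 0.874 and 0.988, limma). Neither low adaptor separated Control from K/BxN libraries in either genotype.

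Ticam2 (ENSMUSG00000056130, chromosome 18), the TRAM adaptor that joins TLR4 to TRIF, had normalised counts of 1785, 1463 and 1843 in WT Control and 1575, 1519, 1414 and 2043 in WT K/BxN. In TASTPM it had 1329, 1809 and 1559 in Control and 975, 897, 1768 and 1203 in K/BxN. In TASTPM 3 of 4 K/BxN libraries lay below all Control libraries, with replicate 3 as the exception. The log2 fold change was -0.06 ± 0.24 in WT and -0.41 ± 0.24 in TASTPM (adjusted p = 0.964 in both, limma), and 0.010 in WT and -0.09 in TASTPM without the 4 libraries. Ticam2 values are uncertain, because 65.3% of its exonic positions are shared with Tmed7 on the same strand.

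Of the 3 IRAK genes, 0 were called in either genotype. Irak1 (ENSMUSG00000031392, GRCm39 chrX:73056964-73067554, minus strand), the kinase that carries the signal on to TRAF6, had normalised counts of 2041, 1612 and 1140.4 in WT Control and 1842, 1624, 1713 and 1220.1 in WT K/BxN. In TASTPM it had 1074, 938 and 943 in Control and 1666, 1449.6, 1765 and 1257 in K/BxN. The 3 TASTPM Control libraries held the lowest Irak1 values of all 14 libraries, and the other 3 groups overlapped. The fold change in WT was 0.03 ± 0.23 (95% interval -0.46 to 0.51, adjusted p = 0.984, limma), and -0.10 without the 4 libraries. In TASTPM it was 0.63 ± 0.23 (0.14 to 1.11, unadjusted p = 0.0145, adjusted p = 0.964, limma, exact permutation p = 0.0571), and 0.60 without the 4 libraries, where the groups did not overlap, as for 18.8% of all genes. The 4 libraries rich in leukocyte markers lay at 1449.6 to 1842 for Irak1, inside the range of the other 10.

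The promoter of Irak1 (RefSeq, GRCm38.p6, chrX:74023872-74024171, minus strand, 5′ to 3′), shown for the same reason, holds a GC box 27 bases before its first listed start, in capitals.

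Irak1: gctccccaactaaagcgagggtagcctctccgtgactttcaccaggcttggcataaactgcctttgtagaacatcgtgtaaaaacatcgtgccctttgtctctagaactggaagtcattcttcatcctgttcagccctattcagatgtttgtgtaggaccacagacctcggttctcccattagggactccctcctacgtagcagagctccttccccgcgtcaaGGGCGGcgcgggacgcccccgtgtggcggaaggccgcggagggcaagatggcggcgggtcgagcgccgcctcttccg

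Irak4 (ENSMUSG00000059883, GRCm39 chr15:94441161-94479696, plus strand), the kinase that phosphorylates IRAK1, had normalised counts of 786, 515 and 499.5 in WT Control and 1225, 1171, 618 and 879 in WT K/BxN. Of the WT K/BxN libraries 3 of 4 lay above all Control libraries. In TASTPM it had 754, 843 and 632 in Control and 1330.0, 731, 438 and 895 in K/BxN, which overlapped. The log2 fold change was 0.68 ± 0.35 in WT (95% interval -0.07 to 1.43, unadjusted p = 0.0728, adjusted p = 0.712, limma) and 0.09 ± 0.35 in TASTPM (adjusted p = 0.988, limma). The WT value was 0.33 without the 4 libraries, and the TASTPM value turned to -0.24. Of the exonic positions of Irak4, 15.7% are shared with Pus7l and Twf1 on the opposite strand.

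Irak3 (ENSMUSG00000020227, GRCm39 chr10:119975568-120038035, minus strand), which encodes the inhibitory IRAK-M, varied most of the 10 genes. Its normalised counts were 1.87, 114 and 157 in WT Control and 878, 556, 297 and 334 in WT K/BxN, a mean of 90.8 ± 79.9 (SD, n = 3) against 516 ± 267 (SD, n = 4) with no overlap. In TASTPM they were 78.3, 139 and 19.1 in Control and 695, 577, 105 and 267 in K/BxN, where 3 of 4 K/BxN libraries lay above all Control libraries. The highest 4 values were those of the libraries rich in leukocyte markers, and the lowest value, in WT Control library 1, rested on 2 reads. The fold change on the log2(value + 1) scale was 3.65 ± 1.16 in WT (95% interval 1.18 to 6.13, unadjusted p = 0.00679, adjusted p = 0.568, limma). The exact permutation p in WT was 0.0286, the smallest that 35 splits can give. In TASTPM the fold change was 2.43 ± 1.16 (-0.05 to 4.91, unadjusted p = 0.0541, adjusted p = 0.964, limma, exact permutation p = 0.0857). WT Control library 1 moved the WT value most, since without it the fold change was 1.80 (unadjusted p = 0.0468, adjusted p = 0.83, limma). Over all alternatives the adjusted p of Irak3 in WT ran from 0.192 to 1.00 (limma, edgeR or DESeq2). Without the 4 libraries the value was 3.08 in WT (95% interval -0.26 to 6.42), where the counts of 297 and 334 stayed above all Control libraries, and 1.47 in TASTPM (-1.86 to 4.81).

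The start sites of Irak3 are both shown, since Irak3 had the largest fold changes of the 10 genes. Site 1 (RefSeq, GRCm38.p6, chr10:120201548-120201847, minus strand, 5′ to 3′) holds 3 GC boxes on the opposite strand, in capitals as CCGCCC, and site 2 (chr10:120202081-120202380, minus strand) holds GAAANNGAA on the opposite strand, in capitals as TTCATTTTC, 102 bases before the start and GAGGAA 33 bases after it. GAGGAA is found in 28.3% of all promoters of this length.

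Irak3 site 1: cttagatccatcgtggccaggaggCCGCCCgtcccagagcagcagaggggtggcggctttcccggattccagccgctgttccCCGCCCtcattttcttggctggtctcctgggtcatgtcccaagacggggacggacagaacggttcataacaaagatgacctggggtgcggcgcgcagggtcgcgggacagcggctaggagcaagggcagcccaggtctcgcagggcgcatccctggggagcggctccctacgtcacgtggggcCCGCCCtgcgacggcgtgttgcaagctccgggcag
Irak3 site 2: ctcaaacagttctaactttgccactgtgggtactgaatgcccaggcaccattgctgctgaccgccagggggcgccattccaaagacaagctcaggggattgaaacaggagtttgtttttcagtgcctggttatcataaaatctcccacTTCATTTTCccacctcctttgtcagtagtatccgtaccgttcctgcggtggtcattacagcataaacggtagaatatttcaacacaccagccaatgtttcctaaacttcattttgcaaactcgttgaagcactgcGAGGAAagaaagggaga

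The 4 libraries rich in monocyte and neutrophil markers, by the sum of both lists, cut across both genotypes. For 4 of the 10 genes their values did not overlap those of the other 10 libraries, as for 10.1% of all genes tested. On neutrophil markers alone WT K/BxN library 2 had 0.0617% of reads, below WT K/BxN library 4 (0.0655%), which is not among the 4. Tlr4 lay at 2509 to 3706 in these 4 libraries and 3850.3 to 8350 in the other 10, and Ly96 at 1042 to 1309.8 against 1420.2 to 2263. Myd88 lay at 2763 to 7735 against 1517 to 2408, and Irak3 at 556 to 878 against 1.87 to 334. For Cd14, 3 of 4 lay below all others, and for Tirap and Irak4 3 of 4 lay above. Ticam1, Ticam2 and Irak1 overlapped, with 1, 2 and 0 of the 4 libraries outside the range of the others. The part of other leukocytes in these values was not tested. The 10 microglial markers had log2 fold changes below 0 in 10 of 10 in both genotypes, with medians of -0.49 in WT and -0.55 in TASTPM, next to -0.42 and -0.41 for the 3 receptor genes.

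**Figure D3:**
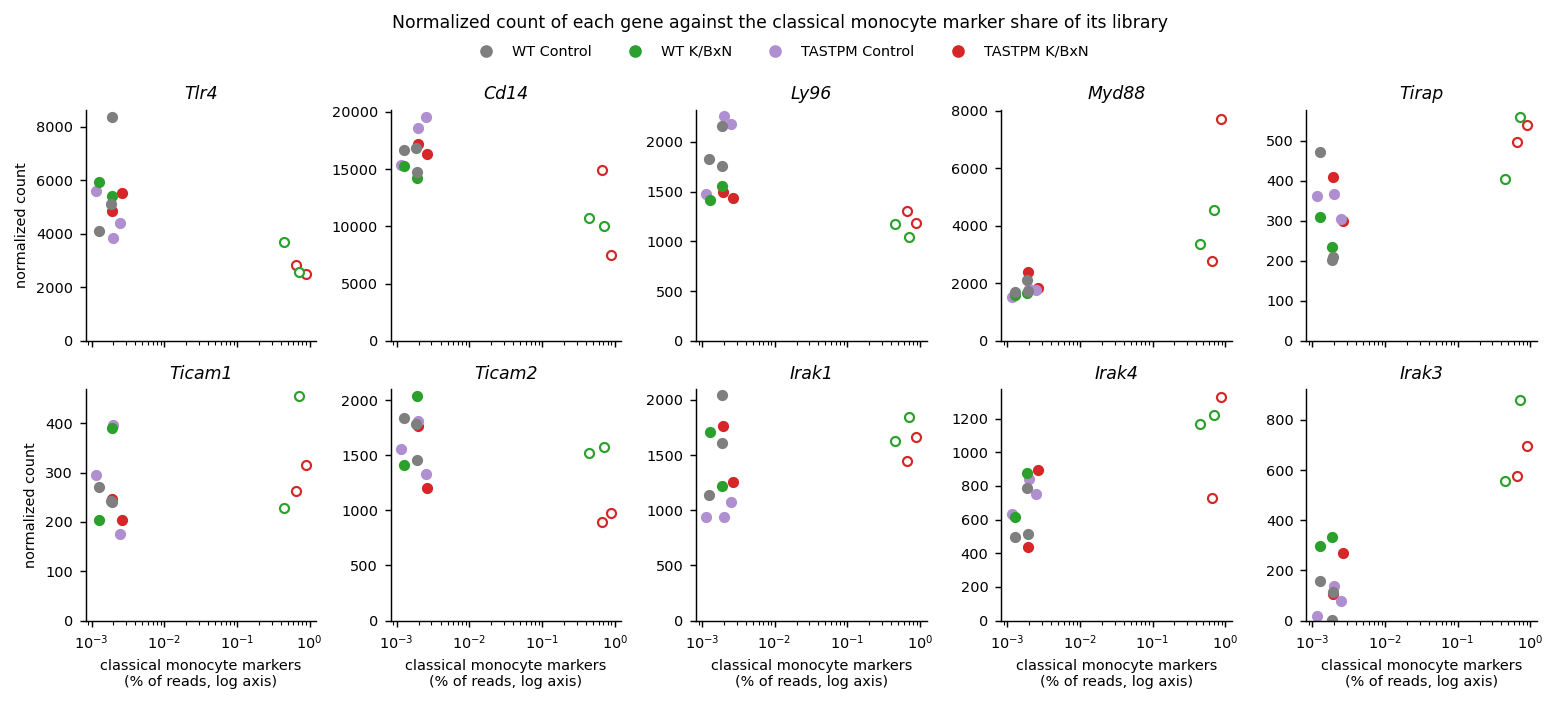
Normalised count of each gene (linear axis) against the share of reads on 8 classical monocyte markers (percent, log axis) in the 14 libraries, coloured by group. The 4 open circles lie at 0.448% to 0.885%, the other 10 libraries between 0.00115% and 0.00263%, with no library between.

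**Figure D4:**
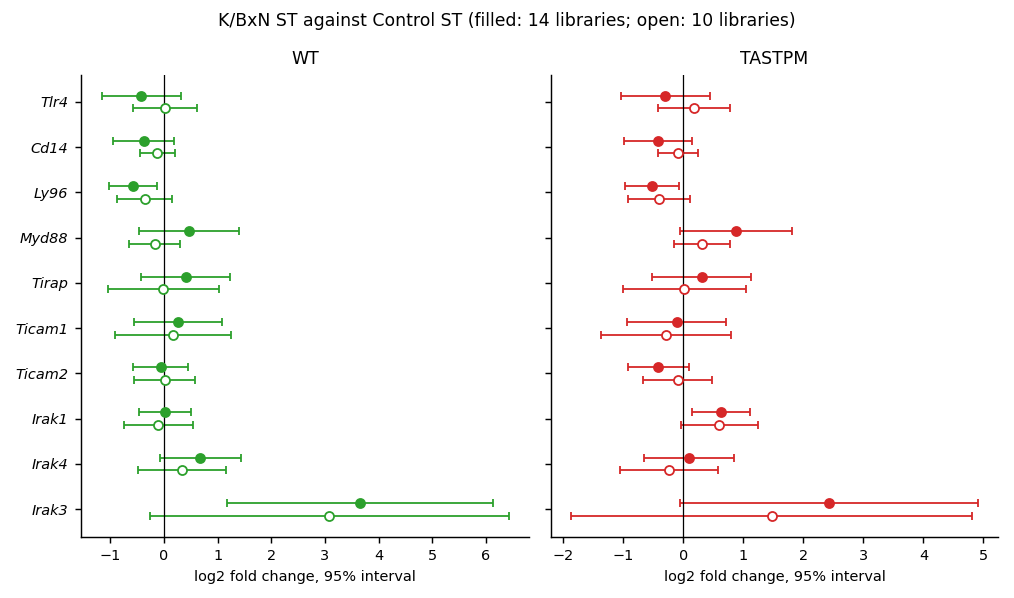
Serum effect per genotype, as the log2 fold change of K/BxN over Control libraries with its 95% interval (limma), WT and TASTPM apart, from all 14 libraries (filled) and from the 10 libraries left without those rich in leukocyte markers (open). Irak3 in WT is 3.65 with all libraries and 3.08 with 10, and Tlr4 moves from below 0 to above 0 in both genotypes.

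With the 10 remaining libraries, 0 of 10 genes passed an unadjusted p of 0.05 by limma in either genotype, where 4.25% of all genes in WT and 4.03% in TASTPM did, a background at which 0 of 10 says nothing about these genes. There Irak3 and Ly96 in both genotypes and Irak1 in TASTPM had the same sign as with all libraries, and Tlr4 had the opposite sign in both genotypes. With the log2 share of the leukocyte markers as a covariate and all 14 libraries, Irak3 in WT was 2.86 and Irak1 in TASTPM 0.54, with unadjusted p-values of 0.0304 and 0.048 (limma). Ly96 was then at -0.40 in WT and -0.31 in TASTPM, with unadjusted p-values of 0.0526 and 0.146 (limma).

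The next question was whether the genotypes differed in these genes. For the difference of the serum effects, TASTPM minus WT, 0 of 10 passed at any level, where 0% of all genes passed the adjusted test and 3.04% an unadjusted p under 0.05 (limma), and edgeR and DESeq2 gave 0 of 10 at an unadjusted p under 0.05 as well, against 2.6% and 3.18% of all genes. Irak1 came nearest, at 0.60 ± 0.32 (95% interval -0.08 to 1.29, unadjusted p = 0.0798, adjusted p = 0.999, limma). Without WT Control library 3 it was 0.83 (unadjusted p = 0.0198, limma, and not called), the 1 fit of all those run in which any of the 10 genes had an unadjusted p under 0.05 for this difference. The fold changes of Irak1 in WT and TASTPM were not shown to differ. For Tlr4 the difference was 0.12 (-0.92 to 1.17) and for Irak3 -1.22 (-4.73 to 2.28), intervals that leave room for large differences either way.

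In Control ST, 0 of 10 genes passed between TASTPM and WT, as did 0% of all genes (limma), and 1 of 10 (Irak1) had an unadjusted p under 0.05 by limma, edgeR and DESeq2 alike, against 5.57% of all genes by limma (2.16% lower), 4.6% by edgeR and 5.72% by DESeq2. Irak1 was lower in TASTPM, 985 ± 76.9 (SD, n = 3) against 1598 ± 451 (SD, n = 3). The groups did not overlap, as for 9.69% of all genes (4.71% lower). The log2 difference was -0.66 ± 0.24 (95% interval -1.18 to -0.14, unadjusted p = 0.0161, adjusted p = 0.76, limma), and the exact permutation p of 0.10 is the smallest that 3 against 3 allows. Without WT Control library 1, which had the highest Irak1 value of all, the difference was -0.46 (unadjusted p = 0.0905, adjusted p = 0.999, limma), and its adjusted p over all alternatives ran from 0.338 to 0.999 (limma, edgeR or DESeq2). The Control libraries enter both this comparison and the serum comparison in TASTPM, so the low TASTPM Control values of Irak1 count in both.

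In K/BxN ST, 0 of 10 genes passed or had an unadjusted p under 0.05 (limma, edgeR and DESeq2), where 0% and 1.91% of all genes did by limma (an unadjusted p under 0.05 in 1.46% by edgeR and 1.92% by DESeq2), and 0 of 10 separated the genotypes, as 1.83% of all genes did. Without the 4 libraries, 2 against 2, Cd14 and Myd88 were higher and Irak3 lower in TASTPM without overlap, 3 of 10 against 33.8% of all genes. Ticam2 had the smallest p, with 1211 ± 394 (SD, n = 4) in TASTPM against 1638 ± 278 (SD, n = 4) in WT, a log2 difference of -0.47 ± 0.22 (95% interval -0.95 to 0.00227, unadjusted p = 0.051, adjusted p = 0.99979, limma), and -0.22 without the 4 libraries. Ticam2 had an unadjusted p under 0.05 with TMM factors, with the marker covariate and without either TASTPM replicate 3 or WT K/BxN library 3, as did Cd14 without TASTPM replicate 1 (limma), and neither was called. Tlr4 differed by -0.30 (-1.09 to 0.50) between the genotypes in Control ST and by -0.17 (-0.86 to 0.51) in K/BxN ST. The Control ST value ran from -0.52 without WT Control library 3 to -0.0074 without WT Control library 2. Cd14 differed by 0.14 (-0.46 to 0.75) and 0.11 (-0.42 to 0.63), and Ly96 by 0.03 (-0.45 to 0.50) and 0.07 (-0.34 to 0.49). A difference of 2-fold either way was outside the 95% interval of Cd14 and Ly96 in both sera, also with any 1 library left out (limma). For Tlr4 in K/BxN ST it was outside with all libraries, but the interval reached -1.08 without WT K/BxN library 1 or TASTPM replicate 4 and -1.04 without TASTPM replicate 3.

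**Figure D5:**
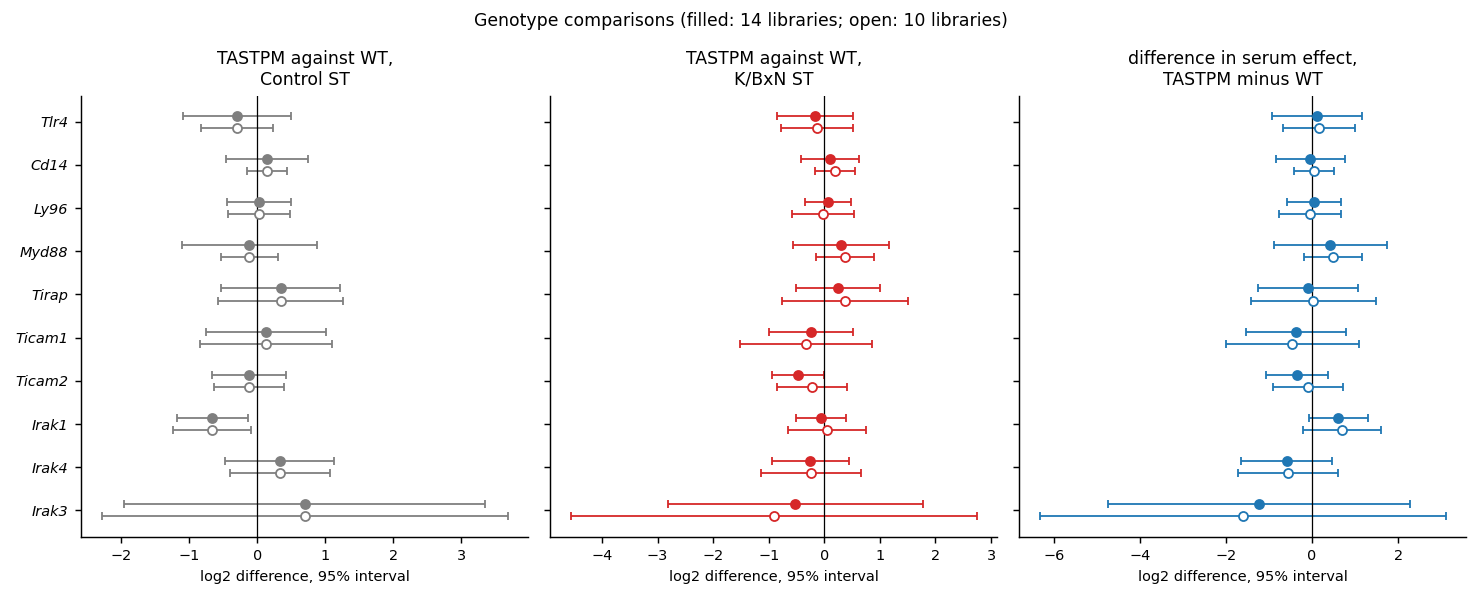
Log2 difference between TASTPM and WT in Control ST and in K/BxN ST, and the difference in the serum effect, with 95% intervals (limma) from all 14 libraries (filled) and from 10 libraries (open). Irak1 in Control ST, at -0.66, is the gene whose interval lies wholly on one side of 0 in the first panel.

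Genes with the most similar patterns over the 14 libraries were taken as those with the smallest root mean square difference of log2 values after centring. For Tlr4, whose own root mean square around its mean was 0.48, they were Tmem106b (0.19) and Arhgap31 (0.22). For Cd14 (0.37) the nearest was Dhrs3 (0.12), and for Ly96 (0.34) they were Tmem59 and Tm2d3 (0.15 and 0.16). For Irak3, with 2.14, the nearest genes were Cep128 and Gbp2 at 0.92 each. In log2 units this is farther than for the other 3, whose own root mean squares around the mean were also smaller. These likenesses are descriptions over libraries of 4 groups that share their marker differences.

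The rest of the pathway was read from lists of ligands, receptor assembly factors, downstream signalling genes, inhibitors and induced targets, with 57 genes tested. By limma and edgeR, 0 of 57 passed in any comparison, where edgeR called 0 of all 12645 genes and limma 1, in WT. DESeq2 called 1 of the 57, S100a8 in TASTPM, where it called 0.127% of all genes. At an unadjusted p under 0.05, 4 were higher and 1 lower in WT, against 4.77% and 2.36% of all genes, and 1 was higher and 1 lower in TASTPM, against 2.62% and 1.6%. The medians over the 57 genes were 0.05 in WT and -0.02 in TASTPM, near those of all genes. Without the 4 libraries they were -0.025 and -0.067, with 2 and 3 of 57 at an unadjusted p under 0.05 (limma), shares near the 4.25% and 4.03% of all genes in the same fit.

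Of the ligands, S100a8 and S100a9, which form the alarmin calprotectin of neutrophils and monocytes, had the largest ranges. S100a8 had normalised counts of 39499 and 50146 in TASTPM K/BxN replicates 1 and 2 and 53594 in WT K/BxN library 1, and between 5.03 and 969 in the other 11 libraries, WT K/BxN library 2 among them. S100a9 was at 38454, 48803 and 51733 in the same 3 libraries and at most 1525 elsewhere. Lgals3, a galectin of activated macrophages, had 9134 to 22744 in the 4 libraries rich in leukocyte markers and 2.39 to 286 in the other 10. The adjusted p-values of these ligands were 0.822 to 0.864 in WT and 0.964 for S100a8 and S100a9 in TASTPM (limma). By DESeq2 on the recovered reads S100a8 in TASTPM was at 9.69 ± 2.23 (adjusted p = 0.0183), with the high values in replicates 1 and 2, which are rich in leukocyte markers. Over the 10 other libraries, S100a8 was at -0.64 in WT and 0.33 in TASTPM, and Lgals3 at -2.17 and 0.84, against 2.24 and 5.66 for S100a8 and 2.32 and 3.92 for Lgals3 with all libraries (limma). The Lgals3 value of -2.17 in WT has no steady direction behind it. WT K/BxN library 3 was at 2.39, where 1 read is worth 1.19, and lay below all WT Control libraries (95.6, 219 and 129). WT K/BxN library 4, at 285, lay above all of them.

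Among the 8 assembly and trafficking genes, Hsp90b1, the chaperone that folds Toll-like receptors, had a log2 fold change of -0.37 ± 0.18 in WT, and Ly86, which encodes MD-1 of the RP105 complex, -0.52 ± 0.28 (adjusted p = 0.699 and 0.729, limma). In TASTPM all 8 were below 0, with a median of -0.21, and Cd180 (RP105 itself) stood at -0.56 ± 0.35 and Rab11a at -0.22 ± 0.17 (adjusted p = 0.964 in both, limma). Cd36, a scavenger receptor, had 0.937, 81.3 and 64.9 in WT Control and 1545, 866, 417 and 169 in WT K/BxN, with no overlap (unadjusted p = 0.0442, adjusted p = 0.691, limma). In TASTPM it had 103, 148 and 72.7 in Control, all above replicates 3 and 4 of K/BxN, where it was listed at 0, and below replicates 1 and 2, at 899 and 311. Of the 8 genes Cd36 was the 1 with an unadjusted p under 0.05 for the difference of the serum effects, against 3.04% of all genes (limma). With the rich libraries left out, Cd36 in WT was at 3.6 with no overlap (18.6% of all genes). The WT Control library at 0.937, which is 1 read, enters this value, so its size is uncertain. In the same fit Ly86 in WT came to -0.27 and the TASTPM median of the 8 genes to -0.11.

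Downstream of the IRAK step, 23 genes were tested, with medians of 0.04 in WT and 0.02 in TASTPM. Ikbkb, the kinase subunit that marks IκB for degradation, was at 1.11 ± 0.46 in WT (unadjusted p = 0.0295, adjusted p = 0.684, limma), with WT Control library 1 at 307 against 995 to 2374 in the other 6 WT libraries. Pik3ap1 was at -0.44 ± 0.31 in WT, and Irak2 and Mapk8 at -0.59 ± 0.33 and -1.27 ± 0.87 in TASTPM (adjusted p = 0.774, 0.964 and 0.964, limma). In the 10 libraries not rich in leukocyte markers, WT Control library 1 among them, Ikbkb in WT was at 0.75. There Pik3ap1 in WT was at -0.24 and Irak2 in TASTPM at -0.056, 0 of 23 genes had an unadjusted p under 0.05 in either genotype, and the medians were 0.06 and 0.02 (limma). Ikbke had too few reads for testing and was listed at 0 in 7 of 14 libraries.

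Among the 13 inhibitors, Dok3, an adaptor that restrains TLR signalling in macrophages, had 902, 702 and 638 in WT Control and 2657, 1940.5, 1138 and 1007.5 in WT K/BxN, with no overlap. Its fold change was 1.08 ± 0.32 in WT (unadjusted p = 0.00451, adjusted p = 0.538, limma) and 0.45 ± 0.32 in TASTPM (adjusted p = 0.964, limma). Tnip1, which binds A20, had 131, 162 and 98.1 in TASTPM Control and 296, 224, 363 and 253 in TASTPM K/BxN, again with no overlap, and a fold change of 1.12 ± 0.49 (unadjusted p = 0.0365, adjusted p = 0.964, limma). Tnip1 lay at 253 to 363 in replicates 3 and 4 and at 224 to 296 in replicates 1 and 2. Dok3 in WT without the 4 libraries was at 0.53 (unadjusted p = 0.102, limma) and Tnip1 in TASTPM at 1.24 (unadjusted p = 0.0801, limma), both with no overlap (18.6% and 18.8% of all genes). Trafd1 and Cyld were at 0.47 ± 0.26 and 0.38 ± 0.23 in WT (adjusted p = 0.734 and 0.742, limma).

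The induced targets, of which 8 were tested, had medians of -0.46 in WT and -0.52 in TASTPM. Il6 was at 416, 227 and 215 in WT Control and 99.4, 54.0, 232 and 133 in WT K/BxN, 3 of 4 below all Control libraries (unadjusted p = 0.0466, adjusted p = 0.695, limma). Tnf was at 73.1, 66.2 and 154 in WT Control and at 47.0, 0, 146 and 0 in WT K/BxN, and in TASTPM Il1a was at -0.91 ± 0.47 (adjusted p = 0.715 and 0.964, limma). Ccl5 was at 0, 28.5 and 6.69 in WT Control and 120.1, 44.3, 28.7 and 63.2 in WT K/BxN (unadjusted p = 0.0493, adjusted p = 0.698, limma). Its groups did not overlap, but only by 28.7 in WT K/BxN library 3 against 28.5 in WT Control library 2. There 1 read is worth 1.19 and 0.838, so in reads the order is the reverse. Cxcl10, an interferon-induced chemokine, was at 153, 298 and 115 in TASTPM Control and 48.9, 125, 0 and 0 in TASTPM K/BxN (unadjusted p = 0.0472, adjusted p = 0.964, limma). Without the 4 libraries Il6 in WT was at -0.63 and Il1a in TASTPM at -0.10, and the medians of the 8 targets were -0.27 in WT and -1.15 in TASTPM. Ccl5 in WT was then at 2.84, a value that the Control library at 0 enters. Its groups were apart by the same narrow gap (18.6% of all genes did not overlap). Of the 8 induced targets, 0 were called in either genotype by limma, edgeR or DESeq2. Lbp, Bgn, Tnc, Ube2v1, Il10, Il12b, Ifnb1, Cxcl1, Cxcl2, Nos2 and Acod1 were on the lists but were not found by symbol in the deposited values. Of 16 induced targets listed, 9 had values, so the medians of the 8 tested cover only part of that list.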

How the data were processed

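Bulk RNA-seq values of sorted dorsal horn microglia were used for 14 libraries in 4 groups. With cDNA made by the SMART-Seq kit, the authors aligned reads using HISAT2 2.1 to GRCm39 and counted them per gene with featureCounts 1.5.2 (versions also in the submitters' processing notes). The deposited table holds a normalised signal (reads over a factor specific to each library) rather than read counts. Every value was a whole multiple of that of 1 read, within 0.01 reads, which gave back whole reads at 100.0% of entries. Of 14336 entries, 7 repeated an identifier and were left out, and 33 genes had no symbol.

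Genes that reached 10 reads in 7 or more libraries were tested with limma 3.58.1 (R 4.3.3, trended prior variance) on log2(value + 1), in 1 fit of the 4 groups, with Benjamini-Hochberg adjustment over 12645 genes. Calls required an adjusted p under 0.05 and an absolute log2 fold change above 1. A count test had been planned for raw counts, but the deposited table holds a signal, and edgeR 4.0.16 and DESeq2 1.42.0 on the recovered reads were alternatives, called at the same thresholds. Single genes had a two-sided exact permutation test on log2 values. Libraries were called rich in leukocyte markers when the share of reads on the monocyte and neutrophil markers was over 5 times that of the highest Control ST library. Intervals are 95%, and read counts carry counting error and amplification without molecular tags. Other alternatives were a pseudocount of 8, no filter, TMM factors, library totals, a marker covariate and leaving out each library.

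The genes, pathway lists and markers were chosen with earlier results of these data known. The text names the 10 genes, the 3 genes of each pathway list with the smallest p in WT and the 2 in TASTPM, and the 2 genes nearest in pattern to each of Tlr4, Cd14, Ly96 and Irak3, of which 1 for Cd14 is not reported here. Exon lengths and positions are from a GRCm39 annotation later than that of the authors, and promoters are from RefSeq on GRCm38.p6 with no coordinates converted.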

Additional observations from a re-analysis of the deposited data

Results flagged for a closer look

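Of the values described, 1 stood out within its group on the log2 scale used for the tests. Cd14 in TASTPM K/BxN replicate 1, at 7511 against 14949 to 17164 in replicates 2 to 4, was separated from the nearest of the others by 0.833 of the range of its group on the log2 scale, above Dixon's 95% critical value for 4 libraries. On the scale of normalised counts the Cd14 gap was 0.771 of the range, below that value, and on that scale Myd88 in the same replicate lay past it instead, with 0.842 (0.715 on the log2 scale). In all, 20 groups of 4 libraries were examined, of which chance alone would set apart about 1. This replicate also had the largest share of monocyte and neutrophil markers (1.66% of reads) and the smallest of microglial markers (2.02%). Their part in the Cd14 value was not tested.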

How the results depend on the processing

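No paired analysis was possible because the replicate numbers of the labels are not shared between groups. Of the 10 genes, 0 were called in any comparison under any alternative run. Of 400 fold changes under alternatives that kept or changed all libraries at once, 375 kept their direction, as did 658 of 700 with 1 library left out. The cause of the following changes was not tested. Over all genes, DESeq2 called 127 in WT, 16 in TASTPM, 12 for the interaction and 41 between genotypes in Control ST. The 1 gene called in WT by limma fell to 0 with edgeR, the marker covariate, a pseudocount of 8 or without the 4 libraries, and the 0 in Control ST rose to 1 with the covariate or without the 4 libraries. With 1 library left out these counts ran from 0 to 17 in WT, 0 to 1 in TASTPM, 0 to 3 for the interaction and 0 to 11 in Control ST.

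Log2 values that turned, without the 4 libraries and with the marker covariate respectively, were in WT Tlr4 0.019 and 0.032, Myd88 -0.17 and -0.13, Ticam2 0.010 and 0.15, Irak1 -0.10 and -0.045. In TASTPM they were Tlr4 0.18 and 0.28, Irak4 -0.24 and -0.32, and for the interaction Cd14 0.041 and 0.047. Only without the 4 libraries, Tirap turned to -0.0094 in WT and 0.031 for the interaction, Ly96 to -0.047 for the interaction and -0.021 between genotypes in K/BxN ST, and Irak1 there to 0.043. Only with the covariate, Tirap turned to -0.13 in TASTPM, and in Control ST Ly96 to -0.011 and Myd88 to 0.014. With DESeq2 the Cd14 interaction was 0.00399, and Irak3 in Control ST was -0.21, or -0.20 with edgeR.

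With 1 library left out, the values that turned ran in WT from -0.17 to 0.0077 for Ticam2 and -0.20 to 0.22 for Irak1, and in TASTPM from -0.43 to 0.16 for Ticam1 and -0.16 to 0.37 for Irak4. For the interaction they ran from -0.17 to 0.35 for Tlr4, -0.16 to 0.24 for Cd14, -0.15 to 0.16 for Ly96, -0.016 to 0.71 for Myd88, -0.49 to 0.12 for Tirap and -2.26 to 0.63 for Irak3. Between genotypes in Control ST they ran from -0.085 to 0.22 for Ly96, -0.14 to 0.45 for Ticam1 and -1.15 to 1.74 for Irak3, and in K/BxN ST from -0.41 to 0.015 for Tlr4, -0.016 to 0.38 for Cd14, -0.027 to 0.17 for Ly96, -0.13 to 0.59 for Myd88, -0.18 to 0.036 for Irak1, -0.51 to 0.024 for Irak4 and -0.89 to 0.018 for Irak3.

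With 3 or 4 libraries a group, a p that misses the threshold does not show that values did not differ. Irak3 in Control ST lay at 1.87 to 157 normalised counts per library. The lowest of these rests on 2 reads, so counting error is large there, although that library had 19357079 reads in all. That library, WT Control library 1, also had the fewest genes with reads, 12182 against a median of 13143 over the 14 libraries.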
